A study of Mus musculus with 151 samples.

Results

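The immediate early genes are genes that cells switch on within minutes of a stimulus, without new protein synthesis. The 10 described here are Fos, Fosb, Jun, Junb, Egr1, Egr2, Ier2, Atf3, Nr4a1 and Dusp1, out of 35976 gene names in each of 7 count tables of mouse ovaries, primordial germ cells (PGCs), oocytes and cumulus cells. They were chosen by name, on the Natural against IVF levels of the E18.5 ovary and the cumulus cells. In those 2 comparisons their values are therefore given as a description, with no test.

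Growth factors, gonadotropins and stress reach these genes through ERK and other MAP kinases, protein kinase A and calcium, which act on the factors SRF, ELK1 and CREB at the promoters. FOS and FOSB pair with JUN and JUNB to form AP-1, the Egr proteins are zinc finger factors, NR4A1 is an orphan nuclear receptor, ATF3 is a stress-induced CREB family factor, IER2 is a small nuclear protein, and DUSP1 removes the phosphates that activate MAP kinases. In the ovary the preovulatory gonadotropin surge is known to induce several of them in granulosa and cumulus cells. The same genes respond to tissue dissection and cell dissociation.

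Natural animals came from mating of CF-1 females with B6/SJL males, and IVF animals from oocytes of superovulated CF-1 females fertilised by sperm of the same kind of male, cultured to the blastocyst stage and transferred to pseudopregnant CF-1 recipients. All animals were female, and no engineered allele is named for them. Ovaries were collected from 4 Natural and 6 IVF fetuses (E18.5), from 4 Natural and 5 IVF adults aged 12 weeks, and from 5 of each aged 39 weeks, of which 1 Natural ovary also carried a label with a later age. E13.5 PGCs were small pools of cells (4 Natural, 5 IVF). Single oocytes (36 Natural and 40 IVF at 12 weeks, 9 and 10 at 39 weeks) and 12-week cumulus cell pools (5 and 5) were taken after eCG and hCG, and the cumulus was removed with hyaluronidase. The labels gave E18.5 for the fetal ovaries of both groups, and the study's text is not uniform on whether IVF fetuses were taken on the same embryonic day.

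Library totals ran from 6995713 to 14830788 counts in E18.5 ovaries, from 2839022 to 43363799 in 12-week ovaries, from 18079970 to 38751638 in 39-week ovaries, from 4364495 to 8675189 in PGCs and from 2532824 to 6345249 in cumulus cells. The lowest 12-week total belonged to IVF ovary 4. PGCs held the germ cell markers at summed levels of 2167 to 7434 CPM (counts scaled to a common library size), and cumulus cells held 3 of the 4 cumulus markers at 1 CPM or more in every library. Immune markers in the cumulus pools spanned 73.0 to 4328 CPM in sum. In 12-week ovaries the 4 oviduct epithelium markers summed to 3002 to 6962 CPM in the Natural group and 7.87 to 2813 CPM in the IVF group, and in 39-week ovaries to 14.8 to 152 CPM in 9 libraries and 7613 CPM in IVF ovary 1. A cumulus library labelled Natural (Natural 5) carried the same name stem as a set of oocytes labelled IVF. The cumulus log2 fold changes of Junb, Egr1, Ier2, Jun and Fos are also given without it. The cumulus ranges and ratios and the main test of the library set include it. In bulk samples, fewer cells of a type and less RNA per cell cannot be told apart.

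The promoters of 4 genes that the results turn on are shown because these genes passed the test between ages given further on and have 1 RefSeq entry each, as the 250 bases before the RefSeq start on GRCm38.p6, 5′ to 3′ on the strand of the gene. Capitals mark TGACG, the core of the cAMP response element (CRE) bound by CREB, on either strand. Fos lies at chr12:85473640-85473889 on the plus strand, Junb at chr8:84978749-84978998 on the minus strand, Nr4a1 at chr15:101266596-101266845 on the plus strand and Dusp1 at chr17:26508473-26508722 on the minus strand.
Fos: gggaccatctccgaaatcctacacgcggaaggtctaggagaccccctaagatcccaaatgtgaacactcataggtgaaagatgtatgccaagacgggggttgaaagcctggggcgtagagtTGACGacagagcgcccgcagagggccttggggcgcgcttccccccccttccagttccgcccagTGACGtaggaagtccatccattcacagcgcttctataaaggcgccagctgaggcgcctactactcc
Junb: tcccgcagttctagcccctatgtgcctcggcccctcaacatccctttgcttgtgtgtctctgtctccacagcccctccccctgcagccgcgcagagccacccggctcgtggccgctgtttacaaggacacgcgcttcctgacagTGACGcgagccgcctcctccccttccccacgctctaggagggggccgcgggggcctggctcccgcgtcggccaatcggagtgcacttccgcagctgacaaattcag
Nr4a1: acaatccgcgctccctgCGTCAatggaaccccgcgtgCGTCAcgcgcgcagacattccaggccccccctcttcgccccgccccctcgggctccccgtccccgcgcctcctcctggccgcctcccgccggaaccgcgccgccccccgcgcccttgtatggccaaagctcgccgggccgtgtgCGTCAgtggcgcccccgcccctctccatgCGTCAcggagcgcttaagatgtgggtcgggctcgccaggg
Dusp1: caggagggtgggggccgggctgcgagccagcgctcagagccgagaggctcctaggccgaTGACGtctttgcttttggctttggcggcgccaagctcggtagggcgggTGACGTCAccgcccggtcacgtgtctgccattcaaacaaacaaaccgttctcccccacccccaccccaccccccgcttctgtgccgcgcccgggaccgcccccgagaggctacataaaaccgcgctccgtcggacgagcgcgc
RefSeq promoters were matched for 8 of the 10 genes. Of the 7 with a single entry, 6 held TGACG, with 4 matches in Nr4a1, 3 in Dusp1, 2 in Fos and 1 in Junb, against 17.8% of all 32851 promoter windows of the same length. The full CRE, TGACGTCA, whose 2 overlapping TGACG matches lie on opposite strands, was found in Dusp1 among those 7 and in 1.55% of all windows. The AP-1 site, TGANTCA, and the CArG box of SRF were in 0 of the 7, against 6.75% and 1.47% of all windows. At shares this low, 0 of 7 does not set these promoters apart. Sites beyond the 250 bases were not searched, so a gene without a match here may still hold them. Egr2, left out of these counts because it has several entries, held a CArG box in most of them. Egr1 and Ier2 were the genes not matched, so their promoters were not searched. These matches describe the letters of the windows and are not evidence of binding.

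Per kilobase of exon (GENCODE vM21), the order of the genes differed between sample types. Jun led in Natural ovaries of every age, at a group mean of 74.8 CPM per kb in the fetal ovary, and of 95.7 and then 124 CPM per kb in the 12 and 39-week ovaries. Ier2 came second at E18.5 at 30.0 CPM per kb. At 12 weeks Dusp1, Junb, Ier2 and Nr4a1 followed at 38.2, 30.6, 28.5 and 25.7 CPM per kb, and their library ranges overlapped. In Natural cumulus cells Junb led at 138 CPM per kb, followed by Ier2 at 60.2 and Dusp1 at 36.3. In oocytes Dusp1 led at 110 CPM per kb at 12 weeks and 128 at 39 weeks, and Egr1 came second at 2.02 and 13.6. PGCs were led by Dusp1 at 60.4 CPM per kb, Ier2 at 43.7 and Fos at 23.2. Levels were scaled within each table, so comparisons across sample types also compare library types.

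**Figure D1:**
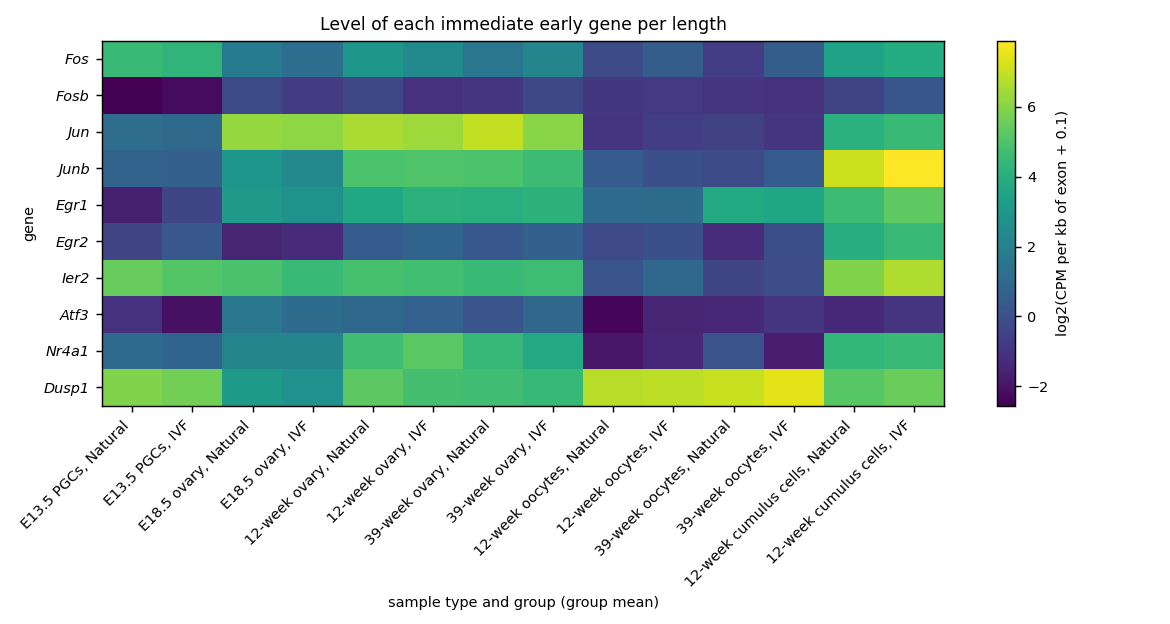
Group mean level of each gene as log2(CPM per kb of exon + 0.1), with genes in rows and sample types split by Natural and IVF in columns. Dusp1 is the brightest row in oocytes, Jun in ovaries and Junb in cumulus cells.

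In E18.5 ovaries 9 of the 10 genes were lower in the IVF group mean and 1 was higher, with a median log2 fold change of -0.41, against 0.000215 over all 16415 genes tested. These are the values that chose the genes. Under some alternatives, left-out libraries among them, Jun (up to 0.01), Nr4a1 (up to 0.12) and Egr2 (down to -0.13, without Natural ovary 2) took the other sign. After the group mean was taken off, IVF ovary 1 was the highest library for 4 of them. Junb, the AP-1 partner of FOS, was 12.5, 11.8, 17.3 and 13.0 CPM in the 4 Natural ovaries and 11.3, 9.04, 6.31, 8.19, 10.4 and 8.80 CPM in the 6 IVF ovaries. Every IVF ovary lay below every Natural ovary, with a log2 fold change of -0.60 (SE 0.19). Junb was the 1 gene of the 10 whose groups did not overlap, where 8.61% of all genes tested had groups without overlap.

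Fos was 7.48, 4.71, 8.95 and 5.80 CPM in the Natural and 10.3, 5.80, 2.82, 3.20, 2.80 and 3.22 CPM in the IVF ovaries. Of the 6 IVF ovaries 4 lay below all the Natural ones and IVF ovary 1 lay above them. Fosb, a second FOS protein, had the same shape, at 2.26 to 3.33 CPM in Natural ovaries against 0.600 to 2.52 CPM in 5 IVF ovaries, with IVF ovary 1 at 5.50 CPM. The log2 fold changes were -0.51 (SE 0.38) for Fos and -0.59 (SE 0.56) for Fosb, and -0.91 and -1.32 without IVF ovary 1. Jun, the most abundant of the genes, was 239 ± 42.8 CPM (SD, n = 4) in Natural and 224 ± 39.0 CPM (SD, n = 6) in IVF ovaries, ranges that overlapped almost wholly.

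Egr1 was 31.6 to 42.5 CPM in Natural ovaries against 25.1 to 37.2 CPM in IVF ovaries, and 4 of the 6 IVF ovaries lay below every Natural one. For Ier2 and Atf3, 5 of 6 IVF ovaries lay below every Natural ovary, at means of 34.4 against 45.6 CPM and 4.57 against 6.46 CPM. Dusp1, the MAP kinase phosphatase, averaged 15.5 CPM in IVF and 20.7 CPM in Natural ovaries (log2 fold change -0.42, SE 0.19). Nr4a1 was level, at 12.0 ± 2.12 CPM (SD, n = 6) and 12.2 ± 1.90 CPM (SD, n = 4). Egr2 was near 1 CPM in both groups, and at 0 in Natural ovary 2.

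Of 33 further immediate early genes, 31 were tested at E18.5, with a median log2 fold change of -0.17, and 2 were lower in IVF ovaries by edgeR's quasi-likelihood test at an adjusted p of 0.05, where 5.43% of all genes were called. With the replicate number as a block, 3 of all genes were called. Gadd45b, a stress-induced growth arrest gene, was 21.3 ± 0.928 CPM (SD, n = 4) in Natural and 12.6 ± 1.70 CPM (SD, n = 6) in IVF ovaries (edgeR adjusted p = 0.0141). Klf2, a zinc finger factor of endothelium, was 40.7 ± 7.58 and 26.7 ± 4.39 CPM (edgeR adjusted p = 0.0362, n = 4 and 6). No gene passed among 20 upstream kinases and factors, 7 feedback inhibitors of ERK signalling, or 12 tested later targets of AP-1 or Egr1, of which 11 had a log2 fold change below 0 (median -0.36). The chaperones Hspa1b (13.8 ± 2.48 and 6.48 ± 2.84 CPM) and Hspb1 (45.7 ± 4.41 and 33.6 ± 3.47 CPM) were lower in IVF ovaries, out of 7 heat shock genes (edgeR adjusted p = 0.0476 and 0.0419, SD over n = 4 and 6).

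Some marker genes of cell types passed the edgeR test between the same ovaries, where 5.43% of all genes did. None passed among the granulosa (5 tested), cumulus (4), germ cell (4), immune (5) and oviduct epithelium (4) markers. Of 4 smooth muscle markers 3 were lower in IVF ovaries, with sums of 541 to 761 CPM in Natural and 340 to 431 CPM in IVF libraries. Of 6 erythroid markers 2 were higher, with sums of 598 to 1596 and 1598 to 4571 CPM. Of 8 oocyte markers 3 were lower, with sums of 118 to 499 and 41.0 to 202 CPM. Of 5 endothelial markers 1 was lower, with sums of 345 to 519 and 334 to 401 CPM. Of 5 stroma and theca markers 1 was higher (9269 to 14922 and 9634 to 14460 CPM), as was 1 of 3 steroidogenic markers (17.9 to 46.7 and 26.5 to 37.6 CPM). None of the defining markers of these lists except 1 oocyte marker was at 0 in all libraries of a group. Their part in the values of the immediate early genes was not tested.

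**Figure D2:**
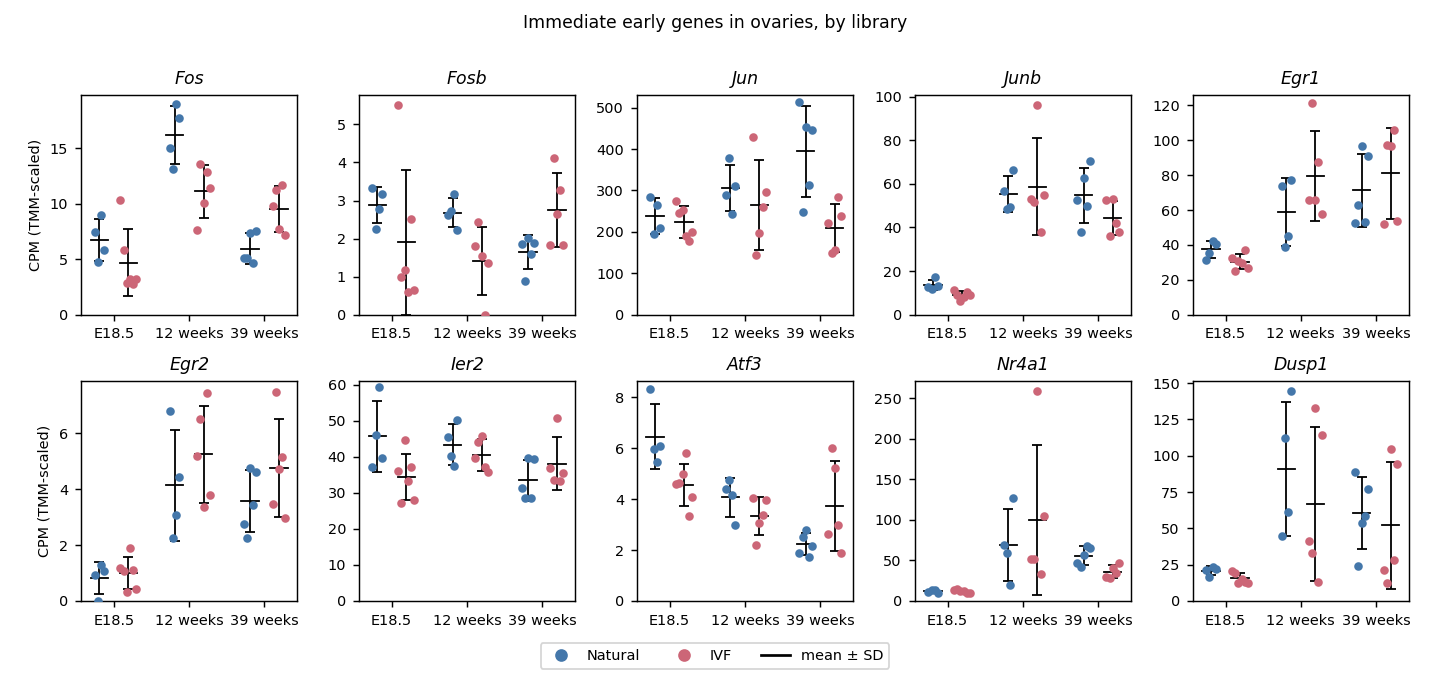
CPM of each gene in each ovary library (points), with mean ± SD (black), for Natural and IVF ovaries at 3 ages, each panel on its own linear axis from 0. At E18.5 all 6 IVF points for Junb lie below the 4 Natural points, and IVF ovary 1 stands above the rest for Fos and Fosb. At 39 weeks 4 of 5 IVF points for Fos lie above, and 4 of 5 for Jun and Nr4a1 below, every Natural point.

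Cumulus cells showed the opposite direction, and again these are values that chose the genes. All 9 genes with enough counts had a log2 fold change above 0 in the fit with the library set as a term, with a median of 0.52, against 0.00364 over 11080 genes tested. Nr4a1 turned to as low as -0.11 without IVF library 3 and was also below 0 without Natural library 4, and Dusp1 was at -0.05 in 1 of the library sets. Atf3, at 0 to 1.63 CPM, was left out by the filter on low counts. The 10 cumulus libraries fell into 2 sets by their names, 6 with the suffix GC (3 Natural, 3 IVF) and 4 without it (2 and 2).

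Junb was 363 and 417 CPM in the 2 Natural and 789 and 752 CPM in the 2 IVF libraries of the set without the suffix. In the GC set it was 122, 143 and 206 CPM in Natural and 216, 165 and 223 CPM in IVF libraries. The groups did not overlap in the first set and overlapped in the second, with ratios of IVF to Natural means of 1.98 and 1.28. For this gene and those below, the share of all genes without overlap within a set was not counted. With so few libraries a group, such splits are not read as a result. Ier2 had the same shape, at 122 and 126 against 253 and 265 CPM in the first set, and at 58.8 to 89.2 against 76.7 to 81.5 CPM in the GC set. Its ratios were 2.08 and 1.13.

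Egr1 was 221 and 212 CPM in Natural and 346 and 347 CPM in IVF libraries of the set without the suffix, and 17.6 to 56.3 and 29.3 to 92.0 CPM in the GC set. Egr2, its relative, was 48.5 and 33.0 against 109 and 81.6 CPM in the first set, and its ratio in the GC set was 1.04. Jun was the exception in order, since its groups overlapped in the first set and not in the GC set, where Natural libraries were at 26.5 to 33.3 CPM and IVF libraries at 44.2 to 49.2 CPM. Fos was 19.0 to 33.4 CPM in Natural and 16.2 to 45.5 CPM in IVF libraries. Fosb, at 0.822 to 6.68 CPM, differed without overlap in the first set. Nr4a1 and Dusp1 overlapped in both sets, at ratios of 1.17 and 0.969 in the first and 1.02 and 1.43 in the GC set.

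In the fit of both sets the log2 fold changes were 0.61 (SE 0.19) for Junb, 0.76 (SE 0.28) for Egr1, 0.53 (SE 0.19) for Ier2, 0.46 (SE 0.17) for Jun and 0.42 (SE 0.25) for Fos. Over the 10 libraries without regard to set 0 of the 9 genes had groups without overlap, where 0.74% of all genes did. Without Natural library 5, whose name stem was that of IVF oocytes, the values were 0.78 for Junb, 1.02 for Egr1, 0.69 for Ier2, 0.47 for Jun and 0.40 for Fos. No gene passed in any of the lists of further immediate early genes (26 tested), upstream kinases and factors (19), feedback inhibitors (5), later targets (9) or heat shock genes (6), where edgeR called 0.00903% of all genes.

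The library set itself separated 4 of the 9 genes, in a test added after the values were seen. Egr1 was higher in the set without the suffix by a log2 difference of 2.56 (SE 0.29, edgeR adjusted p = 7.46e-06), Junb by 1.63 (SE 0.19, edgeR adjusted p = 1.07e-05), Jun by 1.41 (SE 0.17, edgeR adjusted p = 1.42e-05) and Ier2 by 1.29 (SE 0.19, edgeR adjusted p = 0.000128). All 4 libraries without the suffix lay above all 6 GC libraries for each of these genes. Over all genes 11.9% were called higher and 10.4% lower in that set. For Fos, Fosb, Egr2, Nr4a1 and Dusp1 the set difference did not pass. Without Natural library 3 it passed for Nr4a1 as well (0.91, edgeR adjusted p = 0.0293). Both sets held Natural and IVF libraries, and what the sets differed in is not given in the sources used here.

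**Figure D3:**
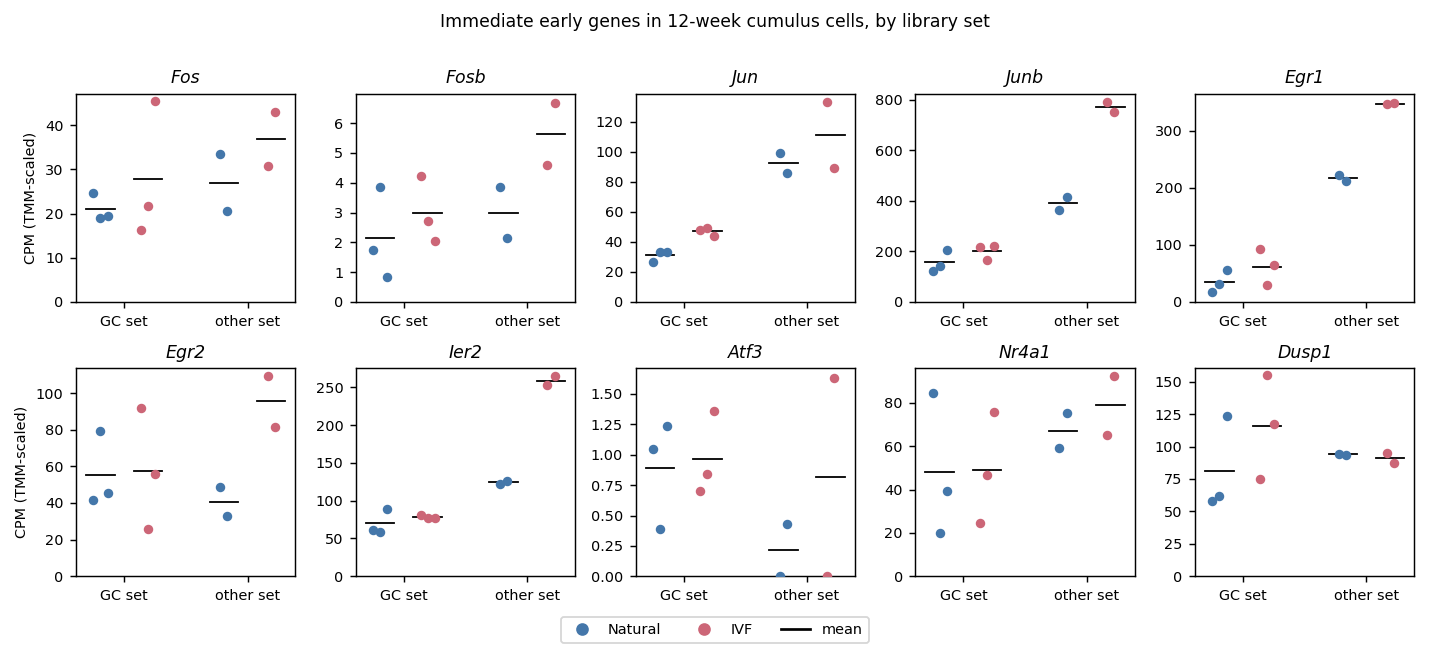
CPM of each gene in each 12-week cumulus library (points) with the mean (bar), for Natural and IVF libraries of the GC set (3 and 3) and of the other set (2 and 2), each panel on its own linear axis from 0. For Egr1, Junb, Jun and Ier2 every point of the other set is above every GC point. In the other set both IVF points for Junb, Egr1, Egr2 and Ier2 are above both Natural points. No share of all genes is given for splits within a set, so they are not read further.

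The 39-week ovaries were not named in the choice of the genes. Earlier results of these data were known at that choice, so the tests here are not fully free of it. In these ovaries the AP-1 genes went in different directions. Fos was 5.08, 5.10, 7.39, 4.63 and 7.52 CPM in the 5 Natural and 9.82, 11.3, 7.72, 11.7 and 7.13 CPM in the 5 IVF ovaries. Of the 5 IVF ovaries 4 lay above every Natural ovary. Its log2 fold change was 0.68 (SE 0.22), which did not pass the adjusted test (edgeR adjusted p = 0.147, unadjusted p = 0.00991). Fosb was at 0.893 to 2.03 CPM in Natural ovaries against 1.84 to 4.11 CPM in IVF ovaries, with 3 IVF ovaries above all Natural ones (log2 fold change 0.74, SE 0.31, edgeR adjusted p = 0.238).

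Jun was 513, 247, 453, 314 and 445 CPM in Natural ovaries against 222, 148, 155, 283 and 239 CPM in IVF ovaries. Again 4 of the 5 IVF ovaries lay apart, here below every Natural ovary, at a log2 fold change of -0.91 (SE 0.24, edgeR adjusted p = 0.106). Junb was 54.7 ± 12.5 CPM in Natural ovaries against 44.3 ± 7.90 CPM in IVF ovaries (SD, n = 5 each), with overlapping ranges. Nr4a1, the nuclear receptor, was 46.5, 41.5, 56.6, 68.1 and 65.9 CPM in Natural ovaries against 29.5, 28.2, 41.0, 34.9 and 46.6 CPM in IVF ovaries, with 4 IVF ovaries below every Natural one (log2 fold change -0.63, SE 0.18, edgeR adjusted p = 0.121). Atf3 was at 1.74 to 2.80 and 1.87 to 6.01 CPM (log2 fold change 0.75, SE 0.33, edgeR adjusted p = 0.254). Egr1, Egr2 and Ier2 had log2 fold changes of 0.19, 0.42 and 0.18, with standard errors of 0.26, 0.31 and 0.15. Dusp1 was at 24.1 to 88.9 CPM in Natural ovaries against 12.3 to 105 CPM in IVF ovaries.

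With edgeR 0 of the 10 genes passed at 39 weeks, where 0.262% of all 17186 genes passed. An unadjusted p under 0.05 was found for 5 of the 10 and for 3303 of all genes. DESeq2 called 3 of the 10, Fos higher (adjusted p = 0.0375) and Jun (adjusted p = 0.0107) and Nr4a1 (adjusted p = 0.0315) lower, among 1135 genes. For DESeq2 no share of all genes is given, so this count is not read further. None of the 10 had groups without overlap, where 5.13% of all genes did. Without IVF ovary 1, which carried the oviduct markers, the values were 0.67 for Fos, -0.93 for Jun and -0.57 for Nr4a1. Among the 7 heat shock genes, which respond to protein stress, 6 were above 0 with a median log2 fold change of 0.64, and 0 passed by edgeR, with 5 at an unadjusted p under 0.05. The 33 further immediate early genes, 31 of them tested, gave 0 calls by edgeR and 2 at an unadjusted p under 0.05. The 3 steroidogenic markers summed to 16860 to 27485 CPM in Natural ovaries against 9639 to 20283 CPM in IVF ovaries. The 7 granulosa markers summed to 797 to 1872 and 1305 to 3468 CPM, and the 3 adipocyte markers to 40.4 to 677 and 32.4 to 1095 CPM. The part of these markers in the values was not tested.

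In 12-week ovaries Fos was 15.0, 13.1, 18.9 and 17.7 CPM in the 4 Natural and 7.65, 13.6, 10.0, 12.8 and 11.4 CPM in the 5 IVF ovaries. Of the IVF ovaries 4 lay below every Natural ovary and IVF ovary 2 lay among them, at a log2 fold change of -0.55 (SE 0.20, edgeR adjusted p = 0.253, unadjusted p = 0.0179). Fosb was 2.23 to 3.16 CPM in Natural ovaries and 0 to 2.43 CPM in IVF ovaries, with the 0 in IVF ovary 4, the shallowest library (log2 fold change -0.77, SE 0.46, edgeR adjusted p = 0.462). Jun, Junb, Ier2, Atf3 and Egr2 overlapped between groups with log2 fold changes of -0.20, 0.09, -0.10, -0.29 and 0.32.

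Nr4a1 and Dusp1 varied the most between 12-week ovaries of the same group. Nr4a1 was 20.1 to 127 CPM in Natural ovaries and 33.1 to 105 CPM in 4 IVF ovaries, with IVF ovary 3 at 259 CPM. Its log2 fold change was 0.55 (SE 0.64), and -0.16 without that ovary. IVF ovary 3 was also highest for Junb, at 96.3 CPM, whose value of 0.09 became -0.15 without it. Dusp1 was 44.4 to 145 CPM in Natural ovaries against 13.2 to 133 CPM in IVF ovaries. Egr1 was 58.8 ± 19.4 CPM (SD, n = 4) and 79.7 ± 25.7 CPM (SD, n = 5).

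At 12 weeks 0 of the 10 genes passed by edgeR, where 0.00567% of all genes passed. An unadjusted p under 0.05 was found for 1 of the 10 (Fos) and for 2544 of all 17628 genes. DESeq2 called 0 of the 10 among 635 genes. None of the 10 had groups without overlap, where 6.08% of all genes did. The oviduct marker sums given above were higher in every Natural ovary than in every IVF ovary. The 3 adipocyte markers summed to 88.6 to 1128 CPM in Natural and 25.2 to 2225 CPM in IVF ovaries. The part of these markers in the values was not tested.

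**Figure D4:**
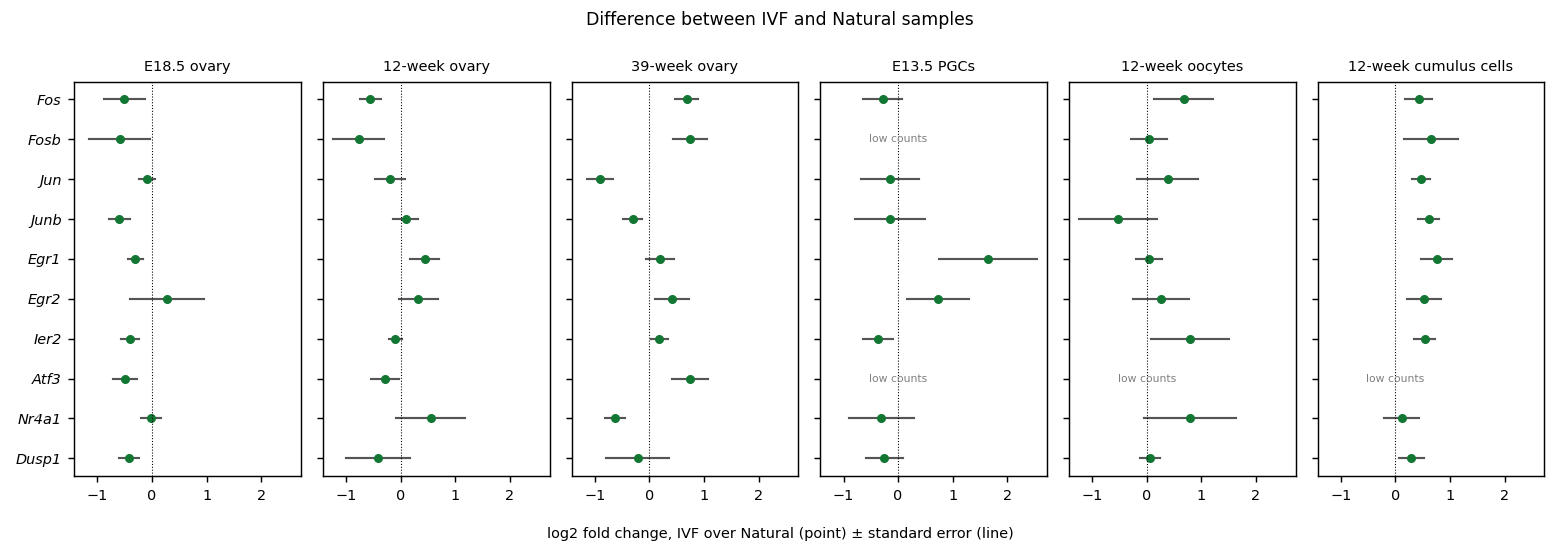
Log2 fold change of IVF over Natural for each gene (points) with its standard error (lines) in the 6 comparisons with replicates, with genes left out for low counts marked. Points lie mostly left of 0 at E18.5 and all right of 0 in cumulus cells, the comparisons on which the genes were chosen, and on both sides of 0 in the others.

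Whether the IVF difference changed between 12 and 39 weeks was tested as an interaction in a joint fit of all 29 ovaries. For Fos the difference moved from lower at 12 weeks to higher at 39 weeks, an interaction of 1.23 on the log2 scale (SE 0.42, edgeR adjusted p = 0.0942, unadjusted p = 0.00730). Fosb (1.54, SE 0.71) and Atf3 (1.04, SE 0.39) moved the same way and Nr4a1 (-1.18, SE 0.58) and Jun (-0.71, SE 0.35) the other way, and none passed by edgeR (adjusted p = 0.220, 0.124, 0.253 and 0.253). Of the 10 genes 0 passed by edgeR, where 2.71% of all 19724 genes passed. An unadjusted p under 0.05 was found for 3 of the 10 and for 3947 of all genes. DESeq2 called 1 of the 10, Fos (adjusted p = 0.0417), among 1531 genes. Here too no share of all genes is given for DESeq2, so the count is not read further.

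Of the other lists 6 genes passed. Ier3 lost the call in 1 of the fits that left out 1 library, and the other 5 genes lost it in 6 to 11 of them. Ier3, an immediate early gene that acts on survival, had an interaction of 2.67 (SE 0.57, edgeR adjusted p = 0.0228). It was 73.7 to 90.4 CPM in Natural ovaries against 13.6 to 38.7 CPM in IVF ovaries at 12 weeks, ranges that did not overlap, and 8.20 to 15.2 and 7.33 to 63.4 CPM at 39 weeks. Among 13 tested later targets 3 passed. Ptgs2, the prostaglandin synthase of ovulation, was 5.13 to 12.2 CPM in Natural ovaries against 0.816 to 2.65 CPM in IVF ovaries at 12 weeks, and 0 to 0.693 and 0.208 to 3.23 CPM at 39 weeks (interaction 3.83, SE 1.01, edgeR adjusted p = 0.0408). Ccnd1, a cyclin of the G1 phase, had an interaction of 2.48 (SE 0.59, edgeR adjusted p = 0.0318). Areg, an EGF receptor ligand, also passed (edgeR adjusted p = 0.0318), at 2.29 to 3.63 CPM in Natural ovaries against 0.204 to 1.65 CPM in IVF ovaries at 12 weeks. It was at 0 in all 5 Natural ovaries at 39 weeks, so no fold is given.

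The 39-week ovary with the highest Ier3, Areg, Ptgs2 and Ccnd1 was IVF ovary 1 in each case, at 63.4, 5.36, 3.23 and 164 CPM, the ovary with an oviduct marker sum of 7857 CPM in the joint scaling. At 12 weeks the highest of each was Natural ovary 3, with 7016 CPM, and the lowest was IVF ovary 3, with 7.86 CPM of the oviduct markers. The part of oviduct tissue in these 4 genes was not tested. Of the heat shock genes Hsph1 (1.35, SE 0.35, edgeR adjusted p = 0.0382) and Hspa8 (0.86, SE 0.22, edgeR adjusted p = 0.0386) passed. All 6 of these calls were lost when the 12 and 39-week ovaries were fitted without the E18.5 ovaries, at edgeR adjusted p = 0.0863 to 0.106. Without 39-week IVF ovary 1 the interaction was 1.80 for Ier3 (edgeR adjusted p = 0.0238), and Ptgs2 (2.68, edgeR adjusted p = 0.134), Ccnd1 (1.64, edgeR adjusted p = 0.0614), Hsph1 (1.13, edgeR adjusted p = 0.0888) and Hspa8 (0.77, edgeR adjusted p = 0.0862) no longer passed.

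In Natural ovaries 6 of the 10 genes were higher at 12 weeks than at E18.5 by edgeR and 0 were lower, where 25.3% of all genes were higher and 24.3% lower. Nr4a1 rose by 2.58 on the log2 scale (SE 0.48, edgeR adjusted p = 7.08e-05), Egr2 by 2.39 (SE 0.57, edgeR adjusted p = 0.00115), Dusp1 by 2.20 (SE 0.60, edgeR adjusted p = 0.00375) and Junb by 2.11 (SE 0.23, edgeR adjusted p = 3.47e-08). Fos rose by 1.34 (SE 0.33, edgeR adjusted p = 0.00157) and Egr1 by 0.74 (SE 0.26, edgeR adjusted p = 0.0218). The call of Egr1 was lost without Natural E18.5 ovary 1 or without Natural 12-week ovary 1 or 4 (edgeR adjusted p = 0.0516, 0.0754 and 0.121). Ier2 (0.01, SE 0.16), Fosb (-0.03, SE 0.55), Jun (0.43, SE 0.27, edgeR adjusted p = 0.185) and Atf3 (-0.59, SE 0.30, edgeR adjusted p = 0.101) did not pass the test.

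From 12 to 39 weeks Fos fell by 1.32 on the log2 scale (SE 0.31, edgeR adjusted p = 0.00398), and was the 1 gene of the 10 that passed, where 10% of all genes were higher and 11.6% lower. Atf3 had a log2 difference of -0.74 (SE 0.28, edgeR adjusted p = 0.0614), and DESeq2 called it lower (adjusted p = 0.0457). The 4 genes Junb, Egr2, Nr4a1 and Dusp1, which had been higher at 12 weeks, had differences of 0.11, -0.09, -0.18 and -0.45, none of which passed. The E18.5 samples were whole gonads and the adult samples were parts of ovaries, in separate tables, so age and preparation cannot be told apart, and the age steps and the interaction share the 12-week Natural ovaries.

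Other lists were counted in the same fit, to be read against the shares of all genes just given for each step. Of 31 further immediate early genes tested, 9 were higher and 4 lower at 12 weeks than at E18.5 (all genes 25.3% and 24.3%), and 1 was higher and 4 lower at 39 than at 12 weeks (all genes 10% and 11.6%). Ier3 was 11.7 ± 2.13 CPM (SD, n = 4) at E18.5, 80.9 ± 7.10 CPM (SD, n = 4) at 12 weeks and 11.6 ± 3.48 CPM (SD, n = 5) at 39 weeks in Natural ovaries. Fosl2, a further FOS family member of AP-1, rose by 2.22 (SE 0.26, edgeR adjusted p = 1.05e-07) to 452 CPM at 12 weeks. Arc rose by 1.92 (SE 0.55), and Npas4 and Gadd45g fell by 1.15 and 0.93 from 12 to 39 weeks (edgeR adjusted p = 0.0396 and 0.0360). Of 20 upstream genes 3 were higher and 4 lower at 12 weeks, and 5 were higher at 39 weeks, among them the SRF partners Elk4 and Elk1 (1.02, SE 0.29, and 0.47, SE 0.15). Of 7 feedback inhibitors 1 was higher and 4 lower at 12 weeks, led by Spry1 (-1.14, SE 0.22). Of the later targets Timp1, an inhibitor of metalloproteinases, rose by 4.12 (SE 0.53) to 275 ± 150 CPM (SD, n = 4) at 12 weeks, and 6 of 7 heat shock genes were higher at 12 weeks.

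**Figure D5:**
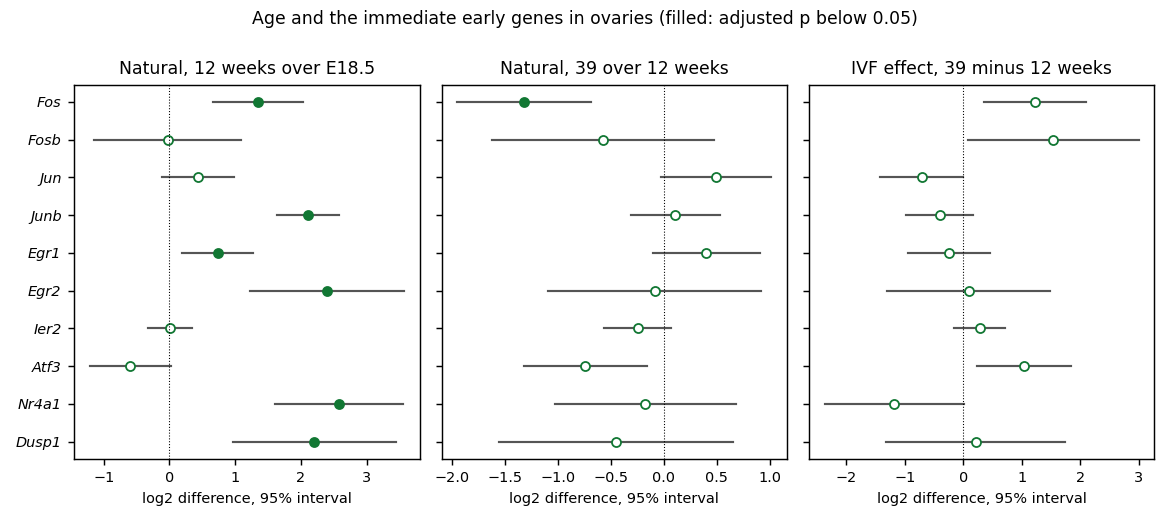
Log2 differences with 95% intervals for each gene in the joint fit of 29 ovaries, for Natural ovaries at 12 weeks over E18.5, Natural ovaries at 39 over 12 weeks, and the IVF difference at 39 weeks minus that at 12 weeks, with filled points where the edgeR adjusted p is below 0.05. In the first panel 6 points are filled, Fos alone in the second and none in the third.

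In E13.5 PGCs the abundant genes were Dusp1, Ier2 and Fos. Fos was 37.3, 54.6, 60.2 and 43.7 CPM in the 4 Natural and 23.3, 38.3, 42.4, 19.0 and 78.1 CPM in the 5 IVF pools. The lowest 2 and the highest pool were all IVF, at a log2 fold change of -0.28 (SE 0.36, 95% interval -1.07 to 0.50). Dusp1 was 60.8 to 191 CPM in Natural and 77.7 to 185 CPM in IVF pools, and Ier2 33.7 to 80.8 and 31.5 to 69.2 CPM. Egr1 was low, at 1.96, 0.195, 1.78 and 0 CPM in Natural and 2.96, 3.68, 3.28, 1.03 and 4.11 CPM in IVF pools (log2 fold change 1.65, SE 0.89), with 4 of 5 IVF pools above every Natural one. Jun, Junb, Egr2 and Nr4a1 reached at most 10.5 CPM, and Fosb and Atf3 were too low to be tested. By edgeR 0 of the 8 genes tested passed and 0 had an unadjusted p under 0.05. Over all 12763 genes edgeR called 0 (0%) with 349 at an unadjusted p under 0.05, and DESeq2 called 0. None of the 8 had groups without overlap, where 1.2% of all genes did.

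Counts of 12-week oocytes were summed over 5 sets of each group (5 to 8 oocytes a set), read from library names. No label ties a set to a donor animal. Dusp1 was 376, 231, 241, 238 and 215 CPM in Natural and 331, 283, 180, 297 and 263 CPM in IVF sets. The ranges overlapped, at a log2 fold change of 0.06 (SE 0.19, 95% interval -0.34 to 0.46). Egr1 was 7.20 to 10.8 CPM in Natural and 6.95 to 14.9 CPM in IVF sets (log2 fold change 0.05, SE 0.24). Egr1 had counts in all 76 oocytes and Dusp1 in 35 of 36 Natural and 40 of 40 IVF oocytes. The other 7 genes tested reached at most 9.31 CPM in any set, and Atf3 was left out for low counts. By edgeR 0 of the 9 passed, where 0.0277% of all 14444 genes passed, and DESeq2 called 0 of the 9. An unadjusted p under 0.05 was found for 0 of the 9 and for 963 of all genes. None of the 9 had groups without overlap, where 1.38% of all genes did. The IVF and Natural sets shared no first field of their names, so that field and group cannot be told apart. Within a group several sets had the same first field, so the sets may not be independent.

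At 39 weeks the labels did not tie oocytes to animals, so each group was taken as 1 sample, with no test. The CPM values given here for single and summed oocytes divide by the plain library total, unless TMM library sizes are named. Dusp1 summed to 29343 counts in 9 Natural oocytes, or 272 CPM (95% exact Poisson interval 269 to 275), and to 82370 counts in 10 IVF oocytes, or 460 CPM (457 to 463). Single oocytes ran from 77.1 to 501 CPM and from 246 to 749 CPM, so that the groups overlapped. Natural oocyte 9, the deepest Natural library (18374296 counts), held 1417 Dusp1 counts. With TMM library sizes the means over oocytes were 304 ± 144 CPM (SD, 9 Natural) and 423 ± 139 CPM (SD, 10 IVF). On that scale oocyte markers summed to 2461 to 46414 CPM in Natural and 20759 to 42131 CPM in IVF oocytes. Erythroid markers summed to 116 to 22063 and 3.04 to 31342 CPM. The part of these in the Dusp1 values was not tested. Egr1 was 63.4 CPM (61.9 to 64.9) and 59.9 CPM (58.8 to 61.1). Its range over single oocytes was 41.2 to 84.4 and 12.9 to 103 CPM. Fos was 0.927 CPM (0.754 to 1.13) with counts in 3 of 9 Natural oocytes, and 3.33 CPM (3.07 to 3.61) with counts in 7 of 10 IVF oocytes. For Egr2 93.6% of the IVF counts and for Atf3 90.3% came from a single oocyte, and for Nr4a1 80.1% of the Natural counts did. These intervals cover counting error only and are too narrow where paired reads were counted apart, since 69.0% of the counts above 0 were even numbers.

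Ordered by likeness to Fos across libraries, the other members were spread out, and their order differed between the tables. The part of IVF ovary 1, the highest for Fos at E18.5, in that order was not tested. Likeness was Pearson's r of the log2 CPM left after the group mean, over 10 libraries of each table, which share depth and handling. In E18.5 ovaries Ergic2 (0.952), Tmem38b (0.944), Prlr (0.874), Gpatch2 (0.867) and Ajap1 (0.863) were the non-members most like Fos. Dusp1 ranked 3 of 16414 at 0.920, Jun 62 at 0.740, Junb 196 at 0.639 and Fosb 293 at 0.605, while Egr1 (-0.03) and Ier2 (-0.05) ranked 8560 and 8946. In 39-week ovaries Sox5, Gsk3a, Prss30, Alad and Aptx led at 0.928 to 0.903, Egr2 (0.733, rank 191) and Egr1 (0.699, rank 286) were the nearest members, and Dusp1 was at -0.47. In cumulus cells, after the library set mean as well, Stradb, 0610007P14Rik, Cd44, Map3k12 and Zfp664 led at 0.964 to 0.928, and Nr4a1 (0.644, rank 522) was the nearest member. The order is a description of 10 libraries, and Dusp1 stood near the top in the first table and near the bottom in the second.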

How the data were processed

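RNA-seq was deposited by the authors as 7 tables of raw read counts per gene (35976 gene names each). The submitters' processing notes name Trimmomatic 0.32, STAR 2.3.0e, featureCounts 1.5.0 and mm10, while the study methods name trimgalore for the low-input libraries. Libraries came from a stranded mRNA kit for ovaries and a low-input kit that does not mark strand for PGCs, oocytes and cumulus cells. Of the counts above 0, 56.5 to 73.2% per table were even.

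Groups were taken from the sample labels. Counts of 12-week oocytes were summed by set, read from the first and second field of library names, which no label ties to an animal. Of 151 records, 4 cumulus records repeated the library name of a later record and were counted once, and 4 records of 39-week cumulus cells were not analysed here. No library pair held identical counts.

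Each table was filtered (filterByExpr, minimum count 10), scaled by TMM and tested with the quasi-likelihood test of edgeR 4.0.16 (R 4.3.3) with Benjamini-Hochberg adjustment over all genes tested, two-sided, at 0.05. Cumulus cells had the library set as a term, and the 29 ovaries were also fitted jointly. CPM values use TMM library sizes, except in the Results paragraph on 39-week oocytes, which uses the plain library total unless TMM is named. The single oocyte values among the flagged results use TMM library sizes. The code was tested on simulated data. DESeq2 1.42.0, RLE scaling, no filter, a replicate block and leaving out each library were alternatives. Per the study methods ovaries came from different animals and litters, but the labels tie no library to a litter, and where nothing gives separate animals p-values measure only the spread between samples.

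The members and gene lists were chosen with earlier results of these data known. All members are given in every table, and of each gene list at most 3 called genes per comparison with the largest log2 fold change, plus the 5 genes most like Fos. Depth may have limited the low genes most, which was not tested.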

Additional observations from a re-analysis of the deposited data

Results flagged for a closer look

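The first 15 values were taken up because 1 library stood apart from the others of its group by the gap to its nearest neighbour relative to the range of the group, out of 140 groups tested, where chance gives about 7 (1 in 20). Single 39-week oocytes, which are cells of 1 sample a group and not replicates, gave 6 of the 15. Without them 9 of 120 groups had such a library, and chance gives about 6.

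In 39-week ovaries Ier2 was 50.9 CPM in IVF ovary 3, where the other 4 IVF ovaries were at 33.3 to 37.0 CPM. In PGCs Fosb was 1.07 CPM in Natural pool 3 and 1.85 CPM in IVF pool 5, where the remaining pools were at or near 0, and Junb was 0.335 CPM in IVF pool 2, below the others at 2.88 to 3.69 CPM.

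In 12-week oocytes the Natural set 92_5 was high for Ier2 (4.08 CPM) and Nr4a1 (1.43 CPM), and the Natural set 35_1 for Dusp1 (376 CPM). The IVF set 126_4 was high for Ier2 (9.31 CPM) and Atf3 (1.85 CPM). In single 39-week oocytes the high values were Jun at 8.57 CPM in Natural oocyte 4, Egr2 at 7.51 CPM in Natural oocyte 8, Nr4a1 at 16.1 CPM in Natural oocyte 6, Junb at 10.0 CPM in IVF oocyte 7, Egr2 at 23.6 CPM in IVF oocyte 10 and Atf3 at 7.92 CPM in IVF oocyte 2.

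The last 6 values were taken up because the edgeR test of the difference between the IVF effects at 12 and 39 weeks passed. The adjusted p was 0.0228 for Ier3, 0.0318 for Areg, 0.0408 for Ptgs2, 0.0318 for Ccnd1, 0.0382 for Hsph1 and 0.0386 for Hspa8. All 6 were lost with the 12 and 39-week ovaries alone (adjusted p = 0.0863 to 0.106), and with the replicate number as a block all but Ier3 were (0.0603 to 0.11).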

How the results depend on the processing

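Same-numbered Natural and IVF libraries were not treated as pairs in the main fits. After the group mean was taken off, their correlations ran from -0.132 to 0.0104 at E18.5 and from -0.357 to 0.252 in 12-week ovaries. They ran from -0.00621 to 0.399 in 39-week ovaries, from -0.0683 to 0.536 in PGCs and from -0.144 to 0.256 in cumulus cells. Pairs with different numbers were not compared, so whether the numbers pair libraries was not tested. With the replicate number as a block the number of genes called by edgeR was 3 at E18.5, 0 in 12-week ovaries, 26 in 39-week ovaries, 2 in PGCs, 26 in cumulus cells and 92 for the interaction, with 0 of the 10 genes called in those comparisons. The block turned the sign of Jun in PGCs (0.0603) and of Egr2 from 12 to 39 weeks (0.0329).

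DESeq2 called 1870 genes at E18.5, 635 in 12-week ovaries, 1135 in 39-week ovaries (3 of the 10) and 54 in 12-week oocytes. It called 31 genes in cumulus cells and 1531 for the interaction (1 of the 10). From 12 to 39 weeks it called 2 of the 10, where 2442 of all genes were called higher and 2495 lower. For DESeq2 no share of all genes is given, so its counts of the 10 are not read further. Without the filter on low counts 9 genes were called in 12-week ovaries, 28 in 39-week ovaries, 19 in oocytes and 104 in cumulus cells. In cumulus cells 0 genes were called without the library set term, 639 in the set without the suffix alone and 2 in the GC set alone. By edgeR the Natural ovaries alone gave 2 of the 10 from 12 to 39 weeks, where 1823 of all genes were called higher and 2389 lower. The 12 and 39-week ovaries alone gave 3 genes for the interaction. Ier2 from E18.5 to 12 weeks was -0.0158 with RLE scaling and -0.0148 with DESeq2. In the 2 comparisons that chose the genes, 1 of the 10 was called at E18.5 by DESeq2, and in cumulus cells 1 without the filter and 4 in the set without the suffix alone, counts that support nothing about them. The cause of these differences was not tested.

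Leaving out 1 library at a time gave 313 to 1973 genes at E18.5, 1 to 5 in 12-week ovaries, 0 (without Natural 5) to 123 (without IVF 1) in 39-week ovaries, 1 to 8 in oocytes, 1 to 5 in cumulus cells, 80 (without 12-week Natural 3) to 1111 (without 39-week IVF 5) for the interaction, and 1 to 2 of the 10 genes from 12 to 39 weeks. Of the interaction calls, Ier3 was lost under 2 of 33 alternatives (without 12-week IVF ovary 3, and with the 12 and 39-week ovaries alone), Areg under 8 of 32, Ccnd1 under 9, Hspa8 under 12, and Ptgs2 and Hsph1 under 13 of 33 each. The block kept Ier3 (adjusted p = 0.0298) and lost the other 5 (0.0603 to 0.11). Signs of log2 differences turned for the following genes, with their ranges over the alternatives. At E18.5 Jun ran from -0.18 to 0.0145, Nr4a1 from -0.0977 to 0.12 and Egr2 from -0.13 to 0.59. In cumulus cells Dusp1 ran from -0.0549 to 0.53 and Nr4a1 from -0.11 to 0.49. In 12-week ovaries Junb ran from -0.15 to 0.20 and Nr4a1 from -0.16 to 1.01. In 39-week ovaries Dusp1 ran from -0.64 to 0.0393. In PGCs Jun ran from -0.45 to 0.15, Junb from -0.36 to 0.12 and Nr4a1 from -0.61 to 0.0840. In 12-week oocytes Dusp1 ran from -0.0241 to 0.23, Egr1 from -0.19 to 0.14, Egr2 from -0.33 to 0.53, Fosb from -0.13 to 0.21, Ier2 from -0.42 to 1.49, Jun from -0.19 to 0.64 and Junb from -0.92 to 0.11. For the cumulus set Dusp1 ran from -0.19 to 0.10 and Egr2 from -0.0698 to 0.41. From E18.5 to 12 weeks Fosb ran from -0.12 to 0.0892 and Ier2 from -0.11 to 0.16. From 12 to 39 weeks Egr2 ran from -0.29 to 0.26 and Nr4a1 from -0.48 to 0.34. For the interaction Dusp1 ran from -0.21 to 0.61 and Egr2 from -0.25 to 0.29.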
